A study of Mus musculus with 17 samples.

Results

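Wnt ligands are the secreted proteins that start Wnt signalling. The 10 ligand genes described here, Wnt2, Wnt2b, Wnt4, Wnt5a, Wnt5b, Wnt6, Wnt7b, Wnt9a, Wnt10a and Wnt11, were chosen by gene symbol, as the members of the family that every deposited file lists. They are 10 of the 13905 genes kept from the files of the genotype groups and of the 39179 kept from the files of an inducible model, and all 10 could be tested in every comparison. RNA sequencing measured transcripts in frozen prostate tissue and prostate tumours of C57BL/6 mice. Wild-type prostate (n = 3) came from mice 12 months old. Tumours of the Ctnnb1 group (n = 3; about 12 months) carried 1 Ctnnb1 allele without exon 3 over a normal allele. Tumours of the combined group (n = 3; about 6 to 8 months) carried the same allele and a further engineered change. The labels mark the prostate deletion of these groups as "pc" and do not name the Cre line. The inducible model had the alleles of the combined group, recombined by CreERT2, a form of Cre recombinase that works only after tamoxifen. Its tumours, from mice of about 15 months, were mock treated (n = 2) or treated by androgen deprivation (labelled ADT; n = 3). All tumours therefore carried the exon 3 allele, and all mock and ADT tumours carried every engineered change of the model. The labels do not say that each sample came from a separate animal, so the p-values measure the spread between these samples. Genotype and age differed together in the combined group.

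A Wnt protein is given a fatty acid in the endoplasmic reticulum by Porcn, carried to the cell surface by Wls, and read there by a Frizzled receptor with an Lrp5 or Lrp6 co-receptor, or with Ror or Ryk. In the branch through beta-catenin the signal stops the breakdown of beta-catenin, which then works with TCF/LEF factors in the nucleus. Exon 3 of Ctnnb1 encodes the part of beta-catenin that marks it for breakdown, so the allele used here acts below the ligands and their receptors. Other Wnt ligands, Wnt5a, Wnt5b and Wnt11 above all, are known mainly for signals that do not use beta-catenin. In the developing prostate Wnt ligands come from both the epithelium and the mesenchyme around it, and Wnt5a is known as a mesenchymal signal in the growth of prostate buds.

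The values below are scaled read counts: the reads of a gene, which the authors had brought to a common scale between libraries and rounded to whole numbers. Log2 changes are differences of log2(scaled count + 1) between group means, with a standard error (SE) from limma's moderated test, and a gene is called at an adjusted p under 0.05 (Benjamini-Hochberg over all genes tested). Where levels of different genes are set beside each other, the scaled count was divided by the length of the gene's exons in kb. The totals per library were 32455483 to 47248750 in the genotype files and 30591734 to 32791101 in the inducible files. As these are totals after scaling, they are not sequencing depths. The 2 file sets were scaled and filtered apart, so mock and ADT values were compared only with each other. Axin2, a feedback target of beta-catenin, was at 1777, 2136 and 2278 in wild-type libraries, at 15825, 18451 and 17245 in Ctnnb1 tumours and at 9891, 9466 and 16457 in combined tumours, so every library of both tumour groups lay above the wild type.

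Most Wnt ligand transcripts were more abundant in the tumours than in wild-type prostate. In the Ctnnb1 group limma called 6 of 10 members higher (Wnt2, Wnt4, Wnt5b, Wnt6, Wnt7b and Wnt10a), 1 lower (Wnt2b) and 3 neither way (Wnt5a, Wnt9a and Wnt11). Over all 13905 genes tested, 58.5% were called in this comparison, 28.9% higher and 29.6% lower. In the combined group 7 members were called higher (Wnt2, Wnt4, Wnt5a, Wnt5b, Wnt6, Wnt7b and Wnt11), 1 lower (Wnt2b) and 2 neither way (Wnt9a and Wnt10a), where 57.8% of all genes were called, 28.3% higher and 29.5% lower. The median log2 change of the members was 1.36 in the Ctnnb1 group and 1.08 in the combined group, beside 0.003 and -0.01 over all genes tested. Libraries did not overlap between the Ctnnb1 group and the wild type for 7 members that lay higher and 2 that lay lower, beside 35.9% and 35.6% of all genes, and 71.5% either way. For the combined group this held for 5 members higher and 1 lower, beside 32.1% and 34% of all genes. With equal totals in place of the authors' scaling, the Ctnnb1 count was 8 higher and 0 lower, beside 78.9% of all genes either way. The combined count was then 7 higher and 1 lower, beside 74.3% of all genes either way. Equal totals moved the median log2 change of all genes to 0.49 in the Ctnnb1 group and 0.50 in the combined group. The higher counts under equal totals are to be read beside that general rise, as shares by direction are not given for it. Without combined replicate 11 the combined count was 8 higher and 1 lower, beside 72.1% of all genes either way. Both comparisons use the same 3 wild-type libraries, so they are not independent of each other. The largest change of a member was that of Wnt6 in each comparison, 17.4-fold in the Ctnnb1 group and 6.05-fold in the combined group.

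**Figure D1:**
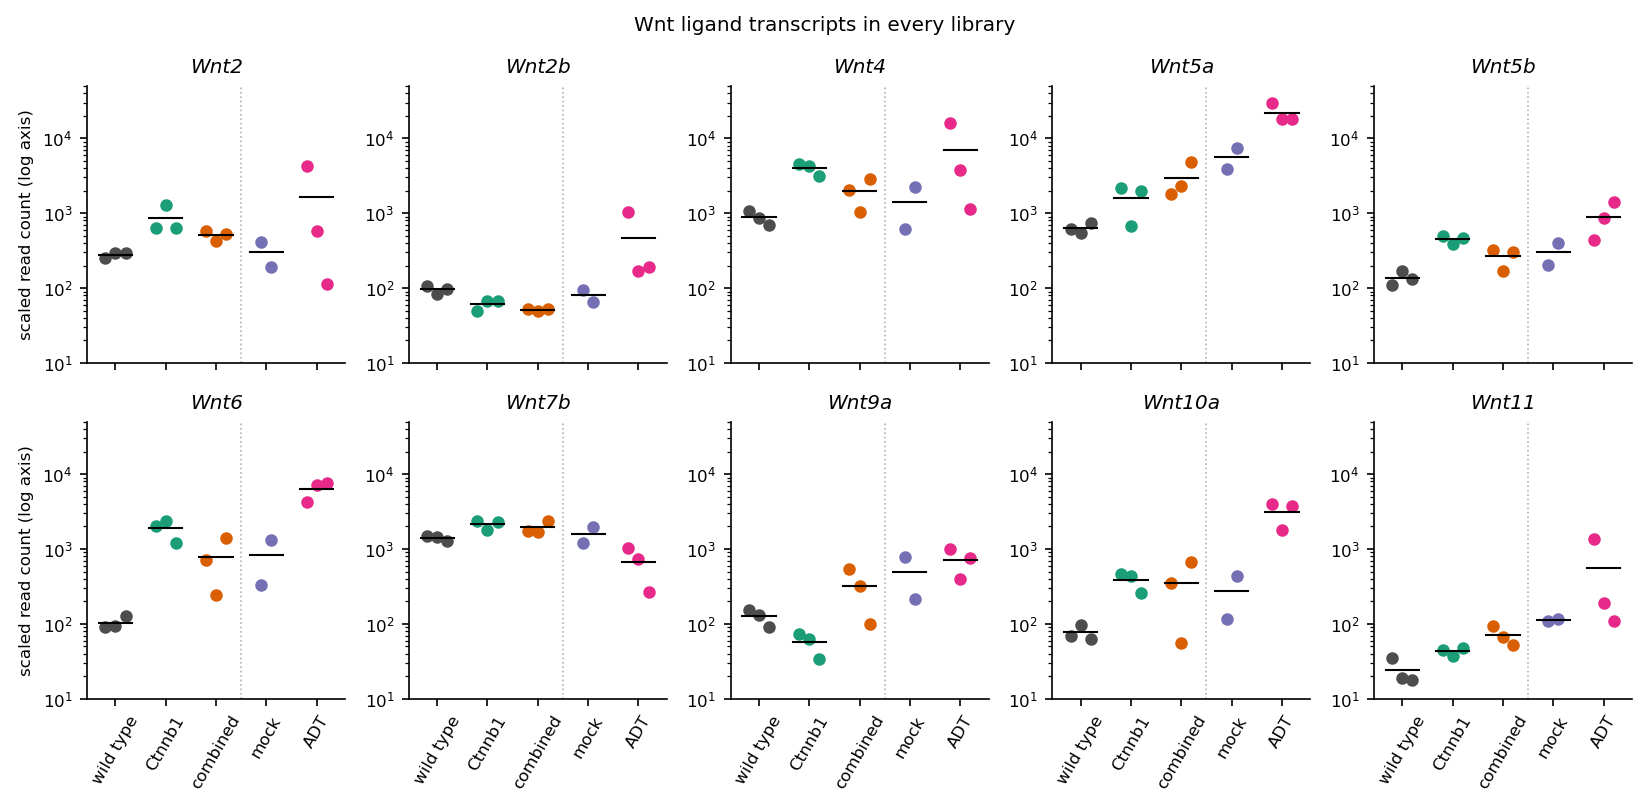
Scaled read counts (log axis) of the 10 Wnt ligand genes in every library, with 1 panel per gene; points are libraries and bars are group means, and the mock and ADT libraries come from a separate file set. Wnt6 stood at 91 to 128 in the wild type and at 1222 to 2375 in the Ctnnb1 group, while Wnt2b was lower in both tumour groups than in the wild type.

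**Figure D2:**
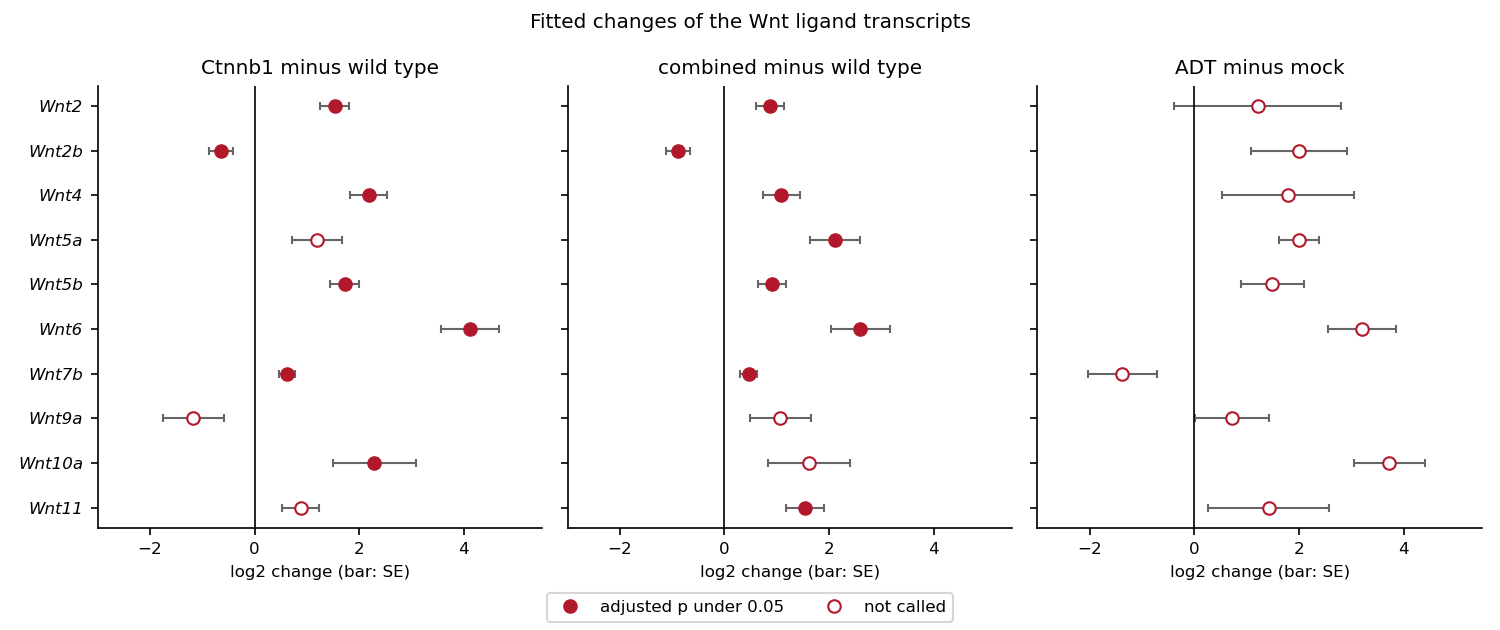
Log2 change (x axis; bars are the SE) of each Wnt ligand gene in the 3 comparisons; filled points passed an adjusted p under 0.05 in limma. Wnt6 had the largest change against wild type in both tumour groups, Wnt2b lay below 0 in both, and no point was filled for ADT against mock.

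Wnt6 and Wnt10a, ligands known from epithelial organs such as the tooth, the hair follicle and the mammary gland, are neighbours in the genome. Wnt6 (Entrez 22420; GRCm38 chromosome 1, 74771892 to 74785322, plus strand) and Wnt10a (Entrez 22409; chromosome 1, 74791516 to 74804179, plus strand) lie 6194 bp apart, with no coding gene between them. Wnt6 was at 91, 94 and 128 in the wild type, at 2056, 2375 and 1222 in Ctnnb1 tumours and at 710, 246 and 1423 in combined tumours. Neither tumour group overlapped the wild type, and the combined libraries spread far more widely than the wild-type libraries. The rise was 4.12 in the Ctnnb1 group (log2; SE 0.56, adjusted p 4.65e-04 in limma) and 2.60 in the combined group (SE 0.56, adjusted p 0.00468 in limma). Both calls stood under every alternative fit, including those without any single library. Wnt10a was at 70, 98 and 63 in the wild type, at 467, 438 and 257 in Ctnnb1 tumours and at 348, 55 and 663 in combined tumours. All Ctnnb1 libraries lay above the wild type, whereas combined replicate 11 lay below it. In the Ctnnb1 group Wnt10a was called higher by 2.29 on the log2 scale (SE 0.79, adjusted p 0.0344 in limma), but the adjusted p was 0.0501 to 0.0942 when any 1 of the 6 libraries compared was left out. Among combined tumours it was not called (1.62, SE 0.79, adjusted p 0.109 in limma), and without replicate 11 it was (2.65, adjusted p 0.00115 in limma). Per kb of exon, Wnt6 exceeded Wnt10a by 1.08 to 2.29 times in the wild type, 4.96 to 6.11 times in the Ctnnb1 group and 2.3 to 5.04 times in the combined group, so the neighbours did not move by the same factor in the Ctnnb1 tumours.

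The bases before the start of Wnt6 are shown because it had the largest change. They were searched for CTTTGAT, or ATCAAAG as read on the other strand, the core that TCF/LEF factors are known to bind. Windows of 250 bases come from RefSeq (GRCm38.p6) and are printed 5′ to 3′ on the strand of the gene. For 7 of the 10 members RefSeq windows were at hand, 10 windows in all, as Wnt5b and Wnt11 have several starts. Those of Wnt5a, Wnt7b and Wnt10a were not used here. The motif was found in 2 of the 10 windows and in 3.21% of all 32851 windows of the same length. The window of Wnt6, chr1:74771642-74771891, held no match.
Wnt6: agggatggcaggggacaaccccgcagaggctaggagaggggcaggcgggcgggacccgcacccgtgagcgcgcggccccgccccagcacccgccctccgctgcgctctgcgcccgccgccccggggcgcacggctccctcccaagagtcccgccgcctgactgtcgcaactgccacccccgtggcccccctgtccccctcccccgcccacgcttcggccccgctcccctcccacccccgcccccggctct

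Wnt4 and Wnt7b had the highest length-scaled levels of the members in wild-type prostate. Wnt7b, an epithelial ligand known from lung and kidney development, averaged 285 per kb, and Wnt4, known for its part in kidney, ovary and mammary duct formation, 209.7 per kb, and their libraries did not overlap. In the Ctnnb1 group this order was turned: Wnt4 came first at 951 per kb, Wnt6 second at 859.6 with overlapping libraries, and Wnt7b next at 441. Wnt4 (Entrez 22417; chromosome 4, 137277489 to 137299726, plus strand) was at 1081, 851 and 706 in the wild type, at 4582, 4288 and 3094 in Ctnnb1 tumours and at 2072, 1050 and 2888 in combined tumours. Every Ctnnb1 library was above every wild-type library, and combined replicate 11 was within the wild-type range. The rise in the Ctnnb1 group (log2 change 2.18, SE 0.35, adjusted p 0.00101 in limma) stood under all alternatives. In the combined group the rise (1.09, SE 0.35, adjusted p 0.0259 in limma) was no longer called without wild-type replicate 2 or 3 or without combined replicate 10 or 12, with adjusted p 0.0662 to 0.0845. Wnt7b (Entrez 22422; chromosome 15, 85535437 to 85582473, minus strand) moved little: 1472, 1438 and 1277 in the wild type, 2385, 1796 and 2304 in Ctnnb1 tumours and 1747, 1676 and 2396 in combined tumours. The groups still did not overlap with the wild type, and Wnt7b was called higher by 0.62 (SE 0.16, adjusted p 0.00983 in limma) and 0.46 (SE 0.16, adjusted p 0.0354 in limma). The first call stood without any library, and the second was lost without any 1 wild-type library or combined replicate 12, at adjusted p 0.0605 to 0.107. Exons of Wnt7b share 324 bp with AU022754 on the other strand, and no source used here says whether counting used strand, so reads of that stretch cannot be assigned.

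Wnt2 and Wnt2b, close relatives that act through beta-catenin and are known from mesenchyme, went opposite ways. Wnt2 (Entrez 22413; chromosome 6, 17988940 to 18030585, minus strand) was at 254, 291 and 293 in the wild type, 634, 1291 and 641 in Ctnnb1 tumours and 575, 431 and 535 in combined tumours. Both tumour groups lay wholly above the wild type, with Ctnnb1 replicate 14 the highest. The log2 change was 1.53 (SE 0.27, adjusted p 0.00159 in limma) and stood without any library, and in the combined group it was 0.87 (SE 0.27, adjusted p 0.0223 in limma). That second call was lost, at adjusted p 0.05 to 0.069, without wild-type replicate 1 or 2 or combined replicate 10 or 12. Wnt2b (Entrez 22414; chromosome 3, 104945272 to 104961921, minus strand) was at 108, 84 and 98 in the wild type, 49, 68 and 68 in Ctnnb1 tumours and 53, 49 and 53 in combined tumours. All 6 tumour libraries lay below all wild-type libraries. It was called lower by both contrasts, with -0.65 in the Ctnnb1 group (SE 0.23, adjusted p 0.0407 in limma) and -0.88 in the combined group (SE 0.23, adjusted p 0.0115 in limma). The Ctnnb1 call was lost when any 1 of its 6 libraries was left out (adjusted p 0.0542 to 0.132), while the combined call stood without each. Rescaling the libraries to equal totals, which moves the median of all genes to 0.49 and 0.50, left Wnt2b at -0.16 and -0.38 and uncalled (adjusted p 0.551 and 0.183 in limma). Per kb, Wnt2 was 4.38 to 6.45 times Wnt2b in the wild type, 17.6 to 35.4 times in the Ctnnb1 group and 16.4 to 20.2 times in the combined group. This ratio is taken within a library, so scaling each library by 1 factor cannot change it, though quantile normalization can. The ratio did not overlap between wild type and either tumour group.

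Wnt9a, a beta-catenin ligand known from joint formation and blood stem cells, had means on opposite sides of the wild type in the tumour groups, and neither difference was called. Wnt9a (Entrez 216795; chromosome 11, 59306928 to 59333552, plus strand) was at 155, 130 and 92 in the wild type, 73, 63 and 34 in Ctnnb1 tumours and 546, 323 and 99 in combined tumours. The Ctnnb1 libraries were all below the wild type, and combined replicate 12 was within the wild-type range while the others were above it. The log2 differences were -1.17 (SE 0.59, adjusted p 0.12 in limma) and 1.07 (SE 0.59, adjusted p 0.151 in limma). Without combined replicate 12 the second was called (1.76, adjusted p 0.00709 in limma). The summed scaled counts of 10 fibroblast and matrix markers ran from 39925 to 46073 in the wild type. They were 328448, 647119 and 53162 in combined replicates 10, 11 and 12. Replicate 12 thus had the fewest of these reads and the least Wnt9a, but replicate 11, with the most of these reads, did not have the most Wnt9a. Macrophage and monocyte marker sums (53255, 51812 and 14471) were also lowest in replicate 12. The part of fibroblasts or of other cell types in this was not tested.

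Wnt5a, Wnt5b and Wnt11, the ligands best known for signals without beta-catenin, all had higher means in both tumour groups. Wnt5a (Entrez 22418; chromosome 14, 28504750 to 28527448, plus strand) was at 619, 537 and 739 in the wild type, 2150, 684 and 2009 in Ctnnb1 tumours and 1804, 2296 and 4777 in combined tumours. All combined libraries were above the wild type, and Ctnnb1 replicate 14 was within its range. The rise of 2.11 in the combined group (SE 0.48, adjusted p 0.00613 in limma) stood under all alternatives. In the Ctnnb1 group the change of 1.19 (SE 0.48, adjusted p 0.0619 in limma) was not called, and without replicate 14 it was (1.73, adjusted p 0.0067 in limma). Combined replicate 12, with the fewest fibroblast marker reads of its group, had the most Wnt5a. Between combined replicates 10 and 11, Wnt5a was higher in replicate 11, which had the higher fibroblast sum. The part of fibroblasts in these values was not tested. Wnt5b (Entrez 22419; chromosome 6, 119432531 to 119544347, minus strand) was at 109, 171 and 132 in the wild type, 491, 390 and 462 in Ctnnb1 tumours and 319, 169 and 307 in combined tumours. The Ctnnb1 libraries formed a tight group above the wild type, and combined replicate 11 fell within the wild-type range. Its log2 change was 1.72 in the Ctnnb1 group (SE 0.27, adjusted p 0.00103 in limma), a call that stood under all alternatives. For the combined group it was 0.91 (SE 0.27, adjusted p 0.0206 in limma), and that call was lost, at adjusted p 0.0543 to 0.0723, without wild-type replicate 1 or 3 or combined replicate 10 or 12. Wnt11 (Entrez 22411; chromosome 7, 98835112 to 98855195, plus strand) was the least abundant member in the wild type, at 35, 19 and 18, and was at 45, 37 and 48 in Ctnnb1 tumours and 93, 66 and 52 in combined tumours. Neither tumour group overlapped the wild type, though Ctnnb1 replicate 14 was close to wild-type replicate 1. The combined group was called higher by 1.54 (SE 0.36, adjusted p 0.00684 in limma), without any library too. The Ctnnb1 group was not called (0.88, SE 0.36, adjusted p 0.0639 in limma), and without wild-type replicate 1 it was (1.18, adjusted p 0.0293 in limma). Exons of Wnt5a share 358 bp with Gm2670 and those of Wnt11 share 364 bp with Gm8398, each on the other strand, so reads there cannot be assigned without strand.

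Both windows with the TCF/LEF core belong to this group of ligands and are shown for that reason, with the match in capitals. In Wnt5b the window chr6:119449387-119449636 (minus strand) is that of 1 of 3 listed starts, and the match begins 71 bases before it. In Wnt11 the window chr7:98834862-98835111 (plus strand) has the match 51 bases before the start. A match says only that these letters are present.
Wnt5b: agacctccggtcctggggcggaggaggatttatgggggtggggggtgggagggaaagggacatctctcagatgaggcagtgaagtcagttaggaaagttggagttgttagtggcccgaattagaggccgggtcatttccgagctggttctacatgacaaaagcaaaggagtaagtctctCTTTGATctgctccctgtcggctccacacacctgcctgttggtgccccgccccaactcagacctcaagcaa
Wnt11: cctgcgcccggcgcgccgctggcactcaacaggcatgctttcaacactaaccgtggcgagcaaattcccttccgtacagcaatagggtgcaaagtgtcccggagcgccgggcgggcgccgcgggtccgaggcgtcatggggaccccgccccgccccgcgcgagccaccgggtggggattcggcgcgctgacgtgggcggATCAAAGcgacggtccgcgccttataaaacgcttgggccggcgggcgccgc

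The make-up of the ligand pool differed between prostate and tumours. Summed over the 10 members, the level per kb was 842 to 942 in the wild type, 2623 to 3501 in the Ctnnb1 group and 1400.0 to 3114 in the combined group, so the tumour libraries all held more. Wnt7b supplied 30.9% to 32.4% of the sum in wild-type libraries, 10.5% to 17.9% in Ctnnb1 and 15.7% to 24.4% in combined libraries. Wnt6 went the other way, from 4.41% to 6.93% in the wild type to 21.3% to 30.9% and 8.02% to 20.8% in the tumour groups. Wnt5a supplied 7.59% to 11.2% in the wild type, 2.5% to 9.79% in the Ctnnb1 group and 10.9% to 21% in the combined group. In the order of levels per kb, the wild type had Wnt7b, Wnt4, Wnt2 and Wnt5a in separate steps. Below them Wnt5b, Wnt6, Wnt9a, Wnt10a and Wnt2b overlapped each with the next, and Wnt11 came last at 5.8, apart from the rest. Among combined tumours the first 8 genes in the order, from Wnt4 at 478 to Wnt9a at 96.9, each overlapped with the next, so their order there is not fixed by these libraries. Shares come from exon lengths of the annotation and not from the transcripts in use, which were not measured here.

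**Figure D3:**
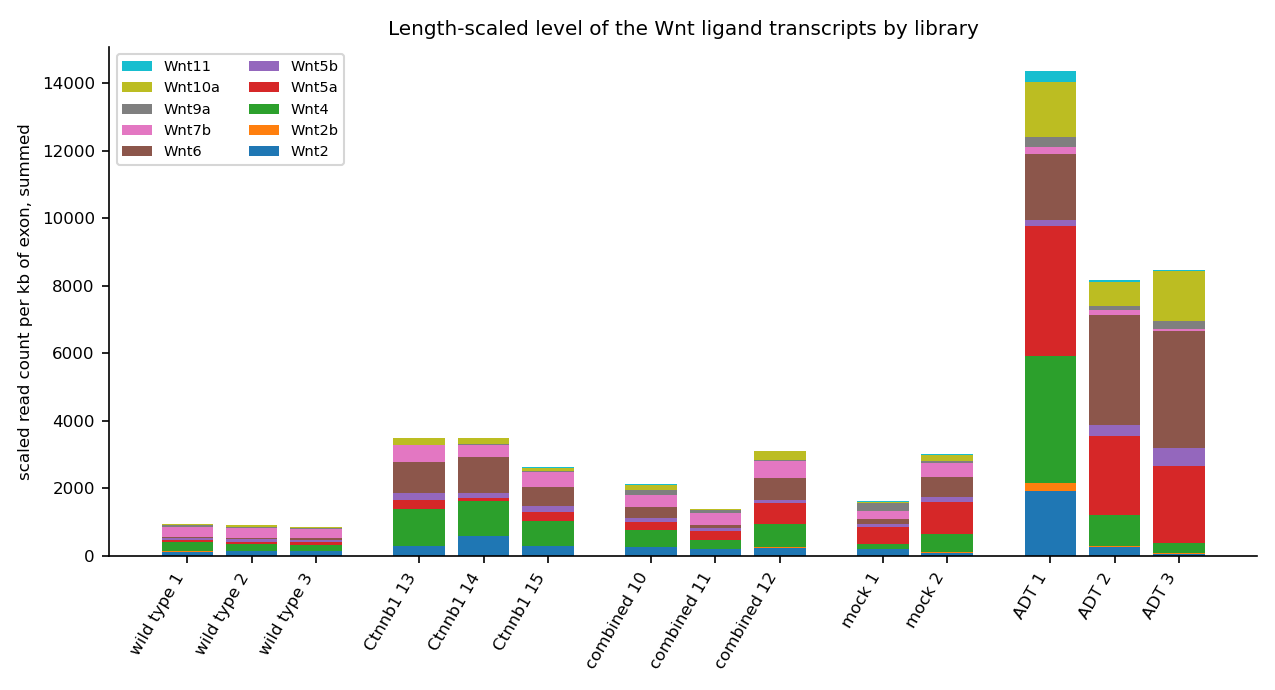
Length-scaled level (scaled count per kb of exon) of the Wnt ligands in each library, stacked by gene; the genotype and the inducible libraries come from separate file sets and are not to be compared across. Wnt7b and Wnt4 made up the largest parts of the wild-type bars, and Wnt4 and Wnt6 those of the Ctnnb1 bars. In the ADT bars Wnt6 made up 13.7% to 41.2% and Wnt5a 26.8% to 28.8%. Wnt5a made up 30.3% to 31.7% of the mock bars.

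Tumours in the inducible model were compared after mock treatment and androgen deprivation. None of the 10 members was called by limma (adjusted p 0.137 to 0.755), where 0.00859% of all genes, 2 of 23289, were called. At an unadjusted p under 0.05 there were 3 members, Wnt10a, Wnt5a and Wnt6, beside 16.2% of all genes. The groups did not overlap for 5 members that lay higher under ADT (Wnt2b, Wnt5a, Wnt5b, Wnt6 and Wnt10a) and 1 that lay lower (Wnt7b), where this held for 16.4% of all genes higher and 16.8% lower, 33.2% in all. The median log2 difference of the members was 1.64, beside -0.02 over all genes. With 2 and 3 libraries this comparison had little power, and a missed threshold does not show that levels were alike.

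Wnt10a was at 116 and 431 in mock tumours and at 3973, 1801 and 3702 under ADT, the widest difference of the members (3.73, SE 0.68, adjusted p 0.137 in limma). Wnt6 was at 336 and 1315 in mock tumours, against 4308, 7121 and 7651 under ADT (3.21, SE 0.65, adjusted p 0.156 in limma). For both neighbours the lowest ADT library lay well above the highest mock library. Wnt5a was at 3866 and 7449 in mock tumours, against 30100, 18394 and 17878 under ADT (2.00, SE 0.39, adjusted p 0.151 in limma), and Wnt5b at 206 and 398 against 433, 868 and 1406 (1.49, SE 0.60, adjusted p 0.326 in limma). Both of these ligands had their groups apart, for Wnt5b by a narrow gap. Wnt7b was at 1194 and 1979 in mock tumours, against 1037, 740 and 266 under ADT, the only member whose ADT libraries were all lower (-1.38, SE 0.66, adjusted p 0.396 in limma). Per kb, Wnt4 was 0.604 and 1.31 times Wnt7b in the mock libraries and 17.8, 5.93 and 4.96 times under ADT.

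Several ligands varied widely among the ADT libraries. ADT replicate 1 held 4319 of Wnt2, against 581 and 114 in the other ADT libraries and 419 and 193 in mock. It also held the most Wnt4, 15803 against 3757 and 1130 under ADT and 618 and 2221 in mock, and the most Wnt11, 1369 against 188 and 108 and, in mock, 109 and 116. Wnt2b was at 1027 there, with 167 and 189 in the other ADT libraries and 95 and 66 in mock. Among the ADT libraries, replicate 1 was also highest for Wnt5a, Wnt7b, Wnt9a and Wnt10a, and lowest for Wnt5b and Wnt6. Wnt9a, at 1016, 393 and 761 under ADT, overlapped with the mock values of 776 and 214. Leaving ADT replicate 1 out turned the difference of Wnt2 from 1.21 to -0.14, neither of them called (adjusted p 0.755 and 0.969 in limma). Without mock replicate 2 the difference of Wnt9a went from 0.72 to -0.21 (adjusted p 0.661 and 0.914 in limma). Differences of Wnt4 and Wnt11 were 1.79 (SE 1.26, adjusted p 0.53 in limma) and 1.42 (SE 1.16, adjusted p 0.59 in limma), and that of Wnt2b was 2.00 (SE 0.91, adjusted p 0.379 in limma). Without ADT replicate 1 the difference of Wnt4 was 0.81, that of Wnt11 0.34 and that of Wnt2b 1.16, none of them called (adjusted p 0.72, 0.711 and 0.25 in limma). Members whose groups did not overlap numbered 6 without ADT replicate 1 or 2, beside 46.5% and 43.7% of all genes. There were 7 without mock replicate 1 or 2, beside 55.5% and 54.8% of all genes. Without ADT replicate 3 there were 9, with 8 higher and 1 lower, beside 42.5% of all genes. Each of these shares is above the 33.2% of all genes with every library in, so the counts are to be read beside them.

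The sum of the members per kb was 1631 and 3004 in the mock libraries and 8164 to 14362 under ADT, with no overlap. Wnt5a led the mock tumours at 723 per kb, followed by Wnt6 at 377, Wnt4 at 338 and Wnt7b at 324, each overlapping with the next. Under ADT Wnt6 (2901 per kb) and Wnt5a (2828 per kb) stood at the top with overlapping libraries, before Wnt4 at 1644 and Wnt10a at 1279.8, and Wnt7b was in place 8 at 139. The inducible files also list 9 Wnt ligand genes that the genotype files leave out. Of these, Wnt10b was at 60 and 31 in mock and 1574, 111 and 78 under ADT, and Wnt7a at 32 and 50 against 238, 253 and 95. Wnt16 was at 58 and 59 against 298, 62 and 12. Wnt1, Wnt3, Wnt3a and Wnt9b were at 0 to 44, and Wnt8a and Wnt8b are listed at 0 in all 5 libraries. The lowest mean of any gene over the 9 genotype libraries was 14.1, so low genes had been removed from those files, and a gene could remain in them through 1 group in which it was high.

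The other genes of the pathway are given by list, and each count is to be read beside the 58.5% (Ctnnb1) and 57.8% (combined) of all genes that were called. Of 13 genes for acylation, transport and release, 1 rose and 7 fell in the Ctnnb1 group and 4 rose and 4 fell in the combined group, in each a share close to that of all genes. Porcn, the acyltransferase, was at 593, 579 and 553 in the wild type, 428, 413 and 421 in Ctnnb1 tumours and 458, 427 and 330 in combined tumours. All tumour libraries were below the wild type, with falls of 0.45 (SE 0.13, adjusted p 0.0177 in limma) and 0.52 on the log2 scale (adjusted p 0.00944 in limma). Wls, the carrier, was at 5347, 5173 and 5255 in the wild type and 5538, 4614 and 5473 in the Ctnnb1 group (-0.02, adjusted p 0.872 in limma). It was higher in the combined group, at 5769, 6223 and 6932 (0.26, adjusted p 0.0398 in limma). Tmed10, a cargo receptor of early secretory vesicles, fell by 0.90 and by 0.92. Notum, an enzyme that removes the fatty acid from Wnt and so inactivates it, rose in both groups, with log2 changes of 5.20 and 3.83 (adjusted p 7.39e-05 and 2.91e-04 in limma). In the inducible model Wls was at 7121 and 8401 in mock and 12643, 13679 and 12785 under ADT (0.75, adjusted p 0.128 in limma), and Porcn at 421 and 472 against 1126, 414 and 526.

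Of 15 receptor and co-receptor genes tested, 2 rose and 3 fell in the Ctnnb1 group and 3 rose and 2 fell in the combined group, smaller shares than the 58.5% and 57.8% of all genes. Fzd5, a Frizzled receptor, fell by 1.00 and by 0.96 on the log2 scale (adjusted p 6.60e-05 and 7.25e-05 in limma), and Lrp5 rose by 0.74 and 0.50 (adjusted p 1.14e-04 and 7.55e-04 in limma). R-spondins are secreted proteins that strengthen a Wnt signal by keeping receptors at the surface. Rspo2 was at 137, 114 and 215 in the wild type, is listed at 0 in all 3 Ctnnb1 libraries and was at 1, 2 and 0 in the combined group. Rspo3 was at 580, 648 and 942 in the wild type, 16, 10 and 16 in Ctnnb1 tumours and 224, 232 and 37 in combined tumours (log2 changes -5.59 and -2.49, adjusted p 2.23e-04 and 0.0112 in limma). Lgr5, an R-spondin receptor, rose (1.91 and 1.56), as did Znrf3 (2.13 and 1.68), a ubiquitin ligase that removes Frizzled proteins from the surface. The list of R-spondins and their receptors had 4 of 8 genes higher and 3 lower in the Ctnnb1 group, and 4 higher and 2 lower in the combined group. Rspo3 was at 188 and 226 in mock tumours and at 606, 1476 and 3469 under ADT (2.82, adjusted p 0.199 in limma).

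Inhibitors of Wnt, most of them secreted and some in the membrane (Apcdd1 and Kremen1), had 12 tested genes. In the Ctnnb1 group 4 of the 12 were higher and 3 lower, and in the combined group 8 were higher and 3 lower. The first count is near the 58.5% of all genes called, and the second compares with 57.8%. Dkk2, which binds the Lrp co-receptors, was at 194 to 243 in wild-type libraries and rose in the tumour groups, which held 5834 to 21992 and 10116 to 14088 (log2 changes 5.70 and 5.76, adjusted p 2.97e-05 and 2.32e-05 in limma). Sost, another Lrp-binding inhibitor, was at 158 to 330 in the wild type and at 0 or 1 in all 6 tumour libraries. Among 16 beta-catenin target genes 15 rose in the Ctnnb1 group and 12 in the combined group, and 0 fell in either. Of 16 planar polarity and non-canonical pathway genes, 4 rose and 3 fell in the Ctnnb1 group and 5 rose and 2 fell in the combined group, led by Vangl1 (1.78 and 1.54, adjusted p 3.67e-05 and 5.95e-05 in limma), a membrane protein of planar cell polarity. That list was called for 7 genes in each group, a smaller share than that of all genes. For these 6 lists limma called 0 genes in ADT against mock. At an unadjusted p under 0.05 there were 5 of 13 acylation, transport and release genes, 7 of 16 receptors, 4 of 9 R-spondins and their receptors, 8 of 15 inhibitors, 11 of 16 beta-catenin targets and 5 of 17 planar polarity genes, beside the 16.2% of all genes. Some genes stand in more than 1 list, such as Wif1 and Apcdd1 among inhibitors and beta-catenin targets, so the list counts overlap. The lists were drawn up with earlier results of these data known.

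**Figure D4:**
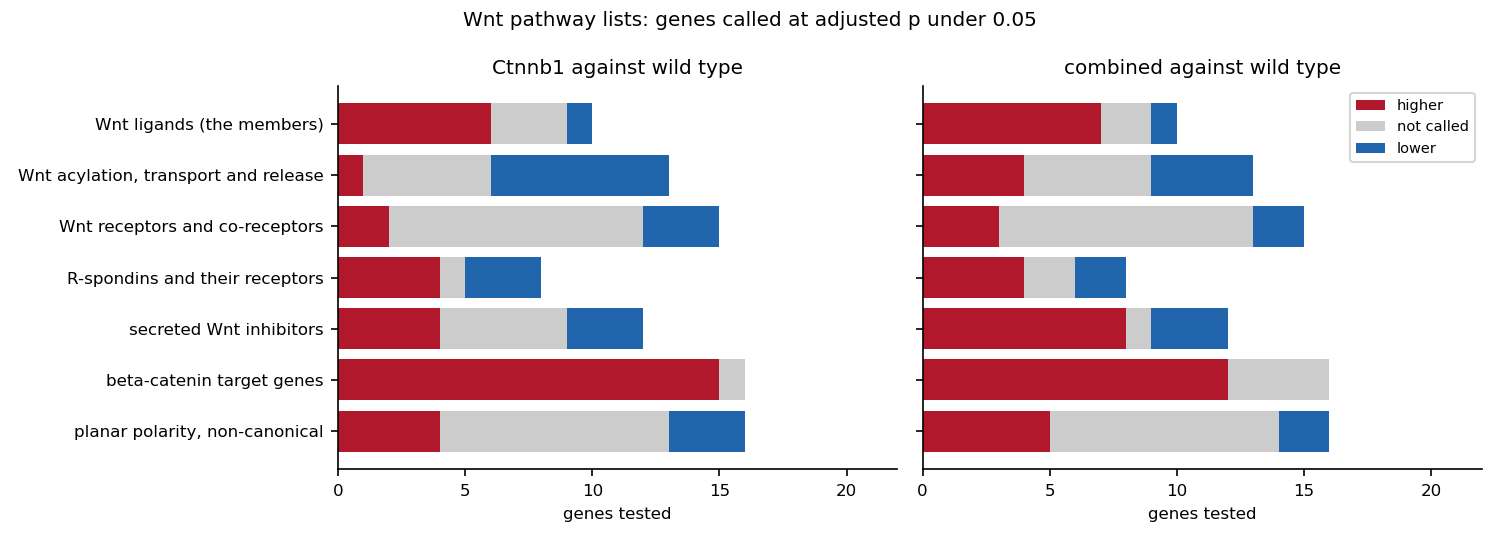
Number of genes called higher, called lower or not called at an adjusted p under 0.05 in limma (x axis, genes tested) in each Wnt pathway list, for both tumour groups against wild type. Among beta-catenin targets 15 and 12 of 16 were higher, and among acylation, transport and release genes 7 and 4 of 13 were lower.

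Cell type markers differed between the same groups as the ligands. In bulk tissue, fewer cells of a type and less RNA per cell cannot be told apart. All 10 smooth muscle markers fell in both tumour groups, and their summed level was 155259 to 197259 in the wild type, 1951 to 3792 in the Ctnnb1 group and 6376 to 21488 in the combined group. Rspo2, Rspo3 and Sost fell alongside, and Wnt2b was lower too. Fibroblast and matrix markers were lower for 1 of 10 in the Ctnnb1 group (29609 to 37714) and higher for 8 of 10 in the combined group (53162 to 647119). Of 10 macrophage and monocyte markers 8 and 9 rose, with sums of 5249 to 5818 in the wild type, 11068 to 21362 and 14471 to 53255. Of 9 squamous keratinisation markers tested, 6 and 7 rose, from sums of 558 to 835 to 1791 to 4894 and 4416 to 5809, with Krt6b listed at 0 in every wild-type library. Prostate luminal and androgen-regulated genes, which check the labelled tissue, were present in all groups, with sums of 494771 to 671563 in the wild type, 60061 to 129766 and 30398 to 75037 in the tumour groups, and 7 and 8 of 9 lower. Markers of neighbouring tissues differed further. Seminal vesicle markers were lower for 6 of 6 in the Ctnnb1 group (median log2 change -11.18) and for 1 of 6 in the combined group, with sums of 446343 to 4389271 in the wild type, 184 to 4401 and 39386 to 206322. Skeletal muscle markers were lower for 7 of 8 in both groups, with sums of 10182 to 163713 in the wild type, 69 to 10948 and 204 to 1404. Nerve and neuroendocrine markers were lower for 7 and 6 of 7, with sums of 1782 to 2717, 226 to 274 and 208 to 291. The part of each of these cell types and tissues in the ligand changes was not tested.

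In the combined and mock groups, the libraries richest in fibroblast markers had the least of several ligands. In the combined group the fibroblast sum was highest in replicate 11 and lowest in replicate 12, and Wnt4, Wnt6 and Wnt10a ran in the reverse order, from 1050, 246 and 55 in replicate 11 to 2888, 1423 and 663 in replicate 12. Mock replicate 1, with a fibroblast sum of 644226 against 131005 in replicate 2, had less Wnt4, Wnt5a, Wnt5b, Wnt6, Wnt7b and Wnt10a than replicate 2, and more Wnt9a, Wnt2 and Wnt2b. Its macrophage marker sum was 106359 against 32613, and its squamous sum 2617 against 15399. Under ADT the fibroblast sums were 478935, 123187 and 158937, so ADT replicate 1 had the highest sum. Of the ADT libraries it also had the most of every member except Wnt5b and Wnt6, of which it had the least. Summed luminal epithelial markers were 121880 and 147289 in mock and 62249 to 83609 under ADT, where limma called 0 of 10 (7 at an unadjusted p under 0.05), and Msmb, a secretory luminal gene, is listed at 0 in all 3 ADT libraries. The part of these differences in the ligand values was not tested.

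**Figure D5:**
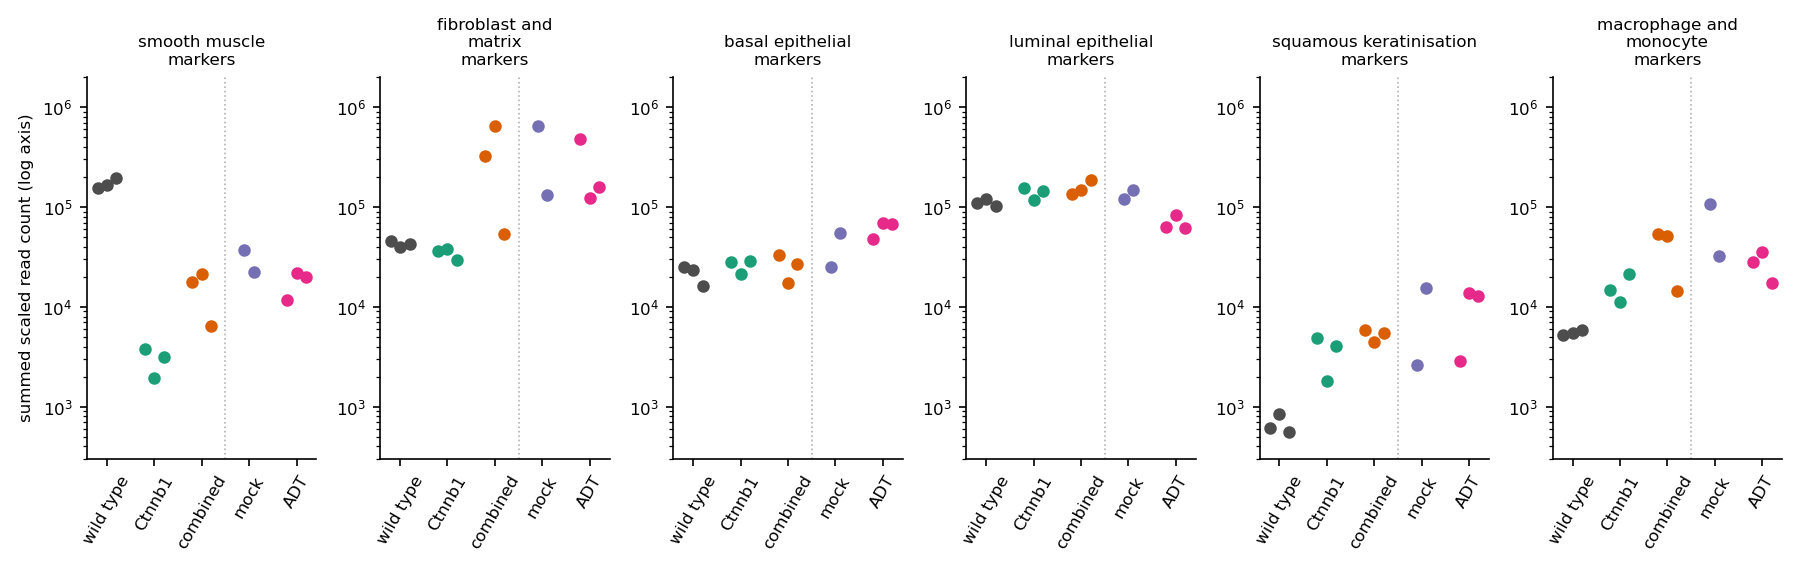
Summed scaled read counts (log axis) of marker lists in every library, 1 panel per list; points are libraries, and the mock and ADT libraries come from a separate file set. Smooth muscle sums were at least 155259 in the wild type and at most 21488 in tumours of the genotype groups, and fibroblast sums spread from 53162 to 647119 within the combined group.

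Across the 9 genotype libraries, the genes with the pattern most like each ligand were found among 11487 genes with a mean of at least 100, by Pearson's r of log2(scaled count + 1). The 9 libraries fall into 3 groups, so a high r mostly restates the group differences, and it is given as a description. Wnt6 was most like Csrnp2 (0.992), Spint1 (0.987) and Bex1 (0.987), and Wnt4 most like Lap3 (0.985), Zfp503 (0.985) and Spint1 (0.981). Wnt10a ran with Cnot3 (0.972), Nccrp1 (0.972) and Cyth2 (0.959), and Wnt7b with Tuft1 (0.99), Tbl3 (0.982) and Alyref (0.977). The nearest genes of Wnt2 were Cables2 (0.987), Aifm1 (0.98) and Cpeb2 (0.979), and those of Wnt2b were Gphn (0.977), Ppm1l (0.975) and Sucla2 (0.971). Wnt9a was nearest to Hic1 (0.979), Col15a1 (0.973), a collagen of basement membranes, and Fam198b (0.967). For Wnt5a these were S100a10 (0.973), Btg2 (0.971) and Emid1 (0.969), for Wnt5b Zfp664 (0.991), Prr3 (0.979) and Rrp8 (0.972), and for Wnt11 Gbp9 (0.99), Cyth1 (0.979) and Tnfsf10 (0.976). Among the ligands themselves Wnt4 and Wnt6 were the most alike (r = 0.97, n = 9 libraries) and Wnt2b and Wnt5a the most opposed (r = -0.81).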

How the data were processed

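RNA sequencing was done on prostate tissue and tumours (wild type, Ctnnb1 and combined groups, 3 libraries each; inducible model, 2 mock and 3 ADT). Per the labels' protocols, RNA with an integrity number above 7.3 was sequenced by BGI as paired reads. Per the submitters' processing notes, the tools were HTSeq 0.6.0, DESeq2 1.14.1, TopHat2 2.1.0, Bowtie2 2.2.6.0, FastQC 0.11.4 and R 3.2.3 and the build GRCm38.p3, with no role stated for each tool, and strand use in counting is not given in the sources used here. The deposited values are treated as scores: whole numbers that, as judged from the values (median ratios between libraries 0.974 to 1.014), the authors had scaled by size factors, 1 for each library, and then rounded. The factors themselves and the depth are not given in the sources used here, so no counting error is stated. A further genotype group is not reported here, nor is any comparison that needs it or isolates the further engineered change.

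Features without an Entrez number (631), with a shared one (270) or repeating a gene's values (389; 3668 in the inducible files) were left out. Values were taken as log2(value + 1). The 9 genotype libraries were fitted together and the 5 inducible libraries alone, with group as the only factor, in limma 3.58.1 (moderated test with trend, R 4.3.3), after a filter of a value of at least 1 in 3 (genotype) or 2 (inducible) libraries, with Benjamini-Hochberg adjustment over all genes tested. The fit was tested on simulated data. Positions and exon lengths came from GENCODE M21 (GRCm38). Alternatives were a pseudocount of 10, a minimum mean of 50, equal totals, quantile normalization, no trend, other sets of libraries, a replicate block and each library left out. The overlap of groups without each library and with equal totals was added after the values were seen. All members are named, with Porcn and Wls, up to 4 called genes of smallest p per pathway list (some of which are not named) and the 3 genes most like each member. Axin2, Rspo3 under ADT, the ligand genes outside the members and Msmb were named beyond this rule after their values were seen. The members and lists were chosen with earlier results of these data known. Figures came from matplotlib 3.10.9 and tables from pandas 2.3.3, under Python 3.11.15.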

Additional observations from a re-analysis of the deposited data

How the results depend on the processing

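Of the 10 ligands, 7 were called in the Ctnnb1 group against wild type, 5 to 6 with any 1 library left out and 7 to 9 under the other settings. Of all 13905 genes, 8131 were called there, 9881 with equal totals and 8090 with quantile normalization. For the combined group these numbers were 8043, 9728 and 8142. Ligand counts with equal totals are to be read beside that general rise, and shares of all genes with a library left out are not given here. In the combined group 8 were called, 5 to 9 with 1 library left out (5 without any 1 wild-type library or combined replicate 10 or 12, and 9 without combined replicate 11). In ADT against mock 0 were called under every setting run, and all rest on 2 and 3 libraries. Calls that stood throughout were those of Wnt2, Wnt4, Wnt5b, Wnt6 and Wnt7b in the Ctnnb1 group and of Wnt5a, Wnt6 and Wnt11 in the combined group, except that a minimum mean of 50 left Wnt11 untested. In the combined group the calls of Wnt4, Wnt5b and Wnt7b were lost in a fit of only the groups compared (adjusted p 0.0502 in limma), with quantile normalization (0.0738) and with 12 genotype libraries (0.0892), in that order. In the Ctnnb1 group Wnt5a was called with equal totals, 12 libraries or only the groups compared (0.0131, 0.0469 and 0.0485), Wnt11 with equal totals, quantile normalization or no trend (0.00956, 0.00362 and 0.0362), and Wnt9a with only the groups compared (0.0254), and the last was lower. Wnt2b in the Ctnnb1 group was also lost with quantile normalization (0.393), and with equal totals Wnt9a and Wnt10a were called in the combined group (0.0386 and 0.0389). With equal totals, 78.9% of called genes were higher in the Ctnnb1 group, beside 49.4% with the authors' scaling, and 81.9% beside 48.9% in the combined group, so the share of higher calls depends on the scaling. In ADT against mock equal totals called 48 genes where the authors' scaling called 2. In ADT against mock, leaving out 1 library moved Wnt2 from -0.14 (without ADT replicate 1) to 2.47 and Wnt9a from -0.21 (without mock replicate 2) to 1.65, with neither called. Mock and ADT titles share the numbers 1 and 2 and no label says what a number marks. A fit with the replicate block called 0 ligands. The deviations of libraries with the same number correlated at 0.27 and 0.15 over 14833 genes. Mock replicate 2 and ADT replicate 3, with different numbers, correlated at 0.16. As there are only 2 mock libraries, their deviations mirror each other. The correlations are therefore not independent and cannot show whether the numbers pair samples. The causes were not tested.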
